A study of Danio rerio with 3 samples.

Results

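The transcripts described here belong to 10 genes: 6 of the amino acid response (asns, chac1, trib3, atf4b, ddit3 and sesn2) and 4 of serine and glycine synthesis (psat1, phgdh, psph and shmt2). They were taken by gene name from the expression tables, where each name matched 1 identifier and 1 row, and they are 10 of 32519 genes in all. RNA from the intestine of healthy adult zebrafish, 6 to 9 months old, was sequenced with 1 library per diet. Control fish ate the commercial feed Tetramin, and the other groups ate granules made of 50% Tetramin and 50% fruit pulp of either Cavendish or Fe'i bananas. All fish were fed 4% of body weight a day for 8 weeks and were sampled on day 56 after a fast of 24 hours. Strain, sex, the number of fish in a library, the part of the intestine and the protein content of the feeds were not stated in the labels.

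When a cell runs short of an amino acid, uncharged transfer RNA activates the kinase GCN2, which phosphorylates the initiation factor eIF2 and slows translation while the transcription factor ATF4 is translated more. ATF4 then raises transcription of genes for amino acid synthesis, transport and stress, and other eIF2 kinases reach the same factor from endoplasmic reticulum stress, heme shortage or double-stranded RNA. Serine is made from a glycolytic intermediate by the enzymes of phgdh, psat1 and psph in turn, and the mitochondrial enzyme of shmt2 converts it to glycine and a one-carbon unit; in mammals ATF4 drives these genes too. Because much of the control of ATF4 lies in translation, its transcript level is not a measure of its protein.

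Values are FPKM, fragment counts normalised to transcript length and library size, after scaling each library by its median ratio to the others. Where 3 levels follow each other they stand in the order control, Cavendish, Fe'i, and the error after ± is the half-width of the authors' 95% interval on the same scale. These intervals cover counting and read assignment within 1 library, not differences between fish, so no difference here has a replicate check and no p-value was computed. Log2 ratios between diets were taken on the log2(scaled FPKM + 1) scale, where changes of low genes come out too small. A gene was called between a pair of libraries when this ratio was at least 1 in size (2-fold), the higher library was at 1 deposited FPKM or more, and the 95% intervals did not overlap. Depth, read from the intervals as an effective number of fragments, was 147, 180 and 115 for the median measured gene and 42.4 to 2172 for the 10 genes.

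The libraries also differed in the levels of cell type markers. Enterocyte markers were present in all 3, with fabp6, a bile acid binding protein, at 10271 ± 92.2, 7457 ± 74.2 and 17303 ± 139 FPKM, while apoa1a, a lipid transport protein, was at 11219 ± 57.0, 7325 ± 42.9 and 7079 ± 52.4. All 19 measured enterocyte markers summed to 47496, 33048 and 42461, and 18 of them lay below control on Cavendish and 16 on Fe'i, with 3 called lower and 0 higher on each. Exocrine pancreas markers summed to 54646, 153723 and 51587 FPKM, with 15 of 20 called higher than control in the Cavendish library and 0 in the Fe'i library. Liver markers summed to 7135, 15364 and 29869 FPKM, with 9 of 24 called higher than control in the Cavendish library and 23 in the Fe'i library. The other 1, cyp7a1, was called lower than control on Fe'i, at a log2 ratio of -2.69, and higher on Cavendish. It was named after its values were seen. Lysosome-rich enterocytes absorb and digest whole protein, and their markers summed to 3429, 2707 and 11639 FPKM, with 2 of 10 called lower on Cavendish and 8 called higher on Fe'i. Endocrine pancreas markers summed to 334, 2901 and 855 FPKM, with 5 of 8 called higher than control on Cavendish and 4 on Fe'i. Smooth muscle and fibroblast markers summed to 399, 1314 and 505 FPKM, with 9 of 13 called higher on Cavendish and 0 on Fe'i. Of 14 egg and germ cell markers 8 were measured, and these summed to 5.31, 3.44 and 58.4 FPKM. All 8 were called higher on Fe'i, but the minimum of 1 FPKM favoured genes high in that library. They reached at most 1.81 FPKM on control feed and 0.979 on Cavendish, and at least 2.05 on Fe'i. Without a minimum 8 of 14 were called. The listed genes dazl, nanos3 and gdf9 were at 0 in the Cavendish library. No measured marker of the other 6 lists was at 0 in any library. In bulk tissue, fewer cells of a type and less RNA per cell cannot be told apart.

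All 10 transcripts were measured on each diet, phgdh at under 1 deposited FPKM in the Cavendish library, and most differed little between diets. The highest library was less than 1.5 times the lowest for 7 of the 10 genes, as it was for 61.9% of the 11413 genes that reached 1 FPKM in every library, and the others were ddit3, trib3 and phgdh. None was called in any of the 3 comparisons, where 7.31% of 14061 measured genes were called between the Cavendish and control libraries, 6.72% between the Fe'i and control libraries and 8.71% between the Fe'i and Cavendish libraries. Of 30 ratios (10 genes in 3 comparisons), 27 were under 0.5 in size on the log2 scale. The exceptions were trib3 between the Cavendish and control libraries, ddit3 between the Fe'i and control libraries, and phgdh between the banana libraries. The median ratio of the 10 genes was 0.13, 0.17 and 0.04 in the 3 comparisons in the same order, beside 0.02, 0.01 and -0.01 over all measured genes. That of the 10 genes against control became -0.12 for the Cavendish library with TPM (FPKM rescaled to the same total in each library), beside -0.19 over all measured genes. The median size of a ratio was 0.17, 0.19 and 0.24 for the 10 genes and 0.27, 0.25 and 0.28 over all measured genes.

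**Figure D1:**
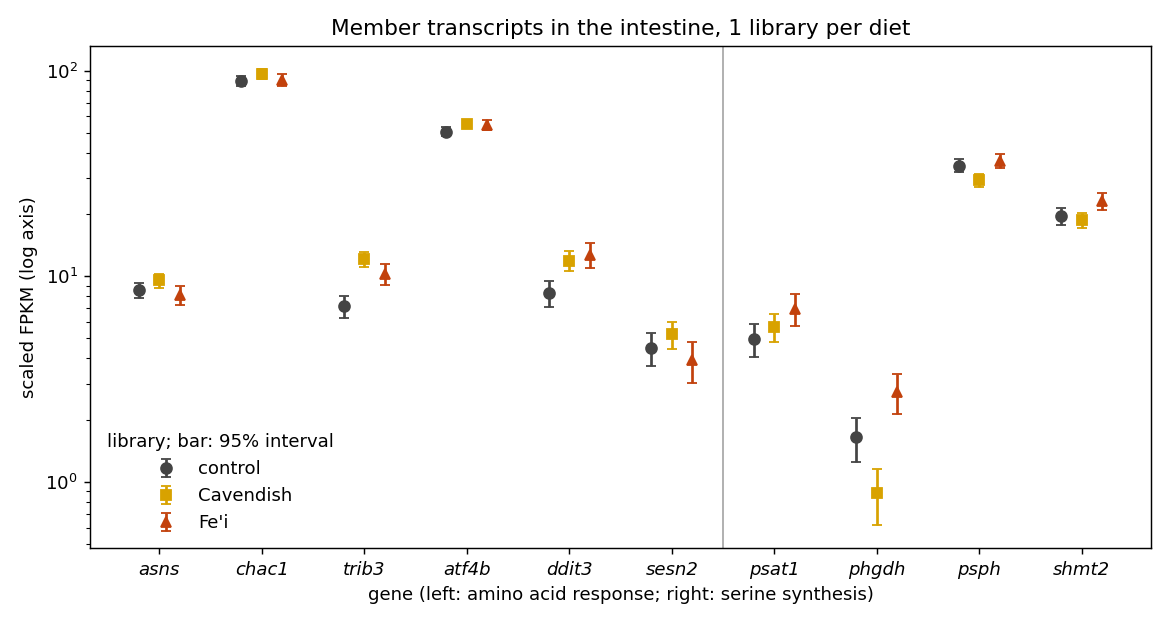
Scaled FPKM (log axis) of the 10 genes for control feed (grey circles), Cavendish (yellow squares) and Fe'i (orange triangles), 1 library each, with the deposited 95% interval as the bar. The genes span from below 1 to nearly 100 FPKM, while most vary little between diets; phgdh, at 0.887 to 2.74 FPKM, has the widest spread.

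The order of levels was also similar across the libraries. chac1 ranked first, followed by atf4b, psph and shmt2, in each library, and phgdh ranked last in each. In the control library asns, ddit3 and trib3 followed, and the intervals of neighbours among these 3 overlapped, as did those of psat1 and sesn2. In the banana libraries ddit3 and trib3 ranked above asns. On a scale of percentiles among measured genes, chac1 lay at 93.4, 93.9 and 93.5 and phgdh at 23.8, 6.26 and 34.1.

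Among the genes of the response, atf4b (ENSDARG00000038141, GRCz11 chromosome 3, 24197934 to 24200819) encodes one of the zebrafish forms of ATF4. It was at 50.6 ± 2.44 FPKM on control feed, 55.1 ± 2.36 on Cavendish and 54.8 ± 2.97 on Fe'i. All 3 intervals overlapped, with log2 ratios to control of 0.12 (95% counting interval 0.03 to 0.21) and 0.11 (0.01 to 0.21). These small ratios were below 0 for both banana libraries when the deposited FPKM were compared without scaling (-0.01 and -0.02). Its paralog atf4a was the more abundant form, at 148 ± 5.11, 134 ± 4.52 and 156 ± 6.10 FPKM, or 2.91, 2.43 and 2.85 times the level of atf4b within each library. atf4a was lowest in the Cavendish library, where its interval lay below those of both other libraries, at a log2 ratio to control of -0.14.

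asns (ENSDARG00000016375, chromosome 19, 25656812 to 25678002) encodes asparagine synthetase and is a textbook target of ATF4. Its level was 8.57 ± 0.763 FPKM on control feed, 9.58 ± 0.749 on Cavendish and 8.09 ± 0.861 on Fe'i. The intervals of all 3 libraries overlapped. The ratio of Cavendish to control was 0.14 on the log2 scale, with a counting interval of -0.01 to 0.29, and that of Fe'i to control was -0.07, with an interval of -0.25 to 0.10, so counting error alone leaves room for neither a 2-fold rise nor a 2-fold fall between these libraries.

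chac1 (ENSDARG00000070426, chromosome 20, 28266892 to 28269462) encodes an enzyme that degrades glutathione, and it was the most abundant of the 10 transcripts. Its locus lies wholly inside that of ino80, a chromatin remodeller at 3.12 ± 0.395, 3.23 ± 0.576 and 2.60 ± 0.445 FPKM, and the labels state no use of strand in counting; the loci of the other 9 genes overlapped no other deposited locus. chac1 was at 89.5 ± 5.28, 96.9 ± 5.42 and 90.5 ± 5.79 FPKM, all within overlapping intervals. Its log2 ratios to control were 0.11 (counting SE 0.06) and 0.02 (counting SE 0.06). The paralog chac2, whose enzyme has the same activity at a slower rate in mammals, was far less abundant, at 2.05 ± 0.501, 1.85 ± 0.442 and 3.21 ± 0.726 FPKM.

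sesn2 (ENSDARG00000070012, chromosome 19, 43341115 to 43357457) encodes a sestrin, which in mammals senses leucine and restrains the growth kinase complex mTORC1. Its levels of 4.48 ± 0.801, 5.23 ± 0.799 and 3.92 ± 0.887 FPKM overlapped in all 3 libraries. Both other sestrin genes were more abundant. sesn1 was at 10.2 ± 1.17, 15.4 ± 1.36 and 12.5 ± 1.5 FPKM, with the Cavendish interval above the other two, and sesn3 at 8.94 ± 0.731, 6.50 ± 0.575 and 6.99 ± 0.747, with the control interval above the other two. Neither sesn1 nor sesn3 was called.

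The genes of the response whose intervals lay apart from control in both banana libraries were trib3 and ddit3. trib3 (ENSDARG00000016200, chromosome 11, 24058530 to 24063196) encodes a pseudokinase that in mammals feeds back on ATF4 and on the insulin-activated kinase AKT. It was at 7.17 ± 0.879 FPKM on control feed, 12.1 ± 1.06 on Cavendish and 10.3 ± 1.22 on Fe'i. Both banana intervals lay above that of the control and overlapped each other. The log2 ratios to control were 0.68 (counting SE 0.10) and 0.47 (counting SE 0.11), below the 2-fold threshold. With libraries scaled on enterocyte markers alone the Cavendish ratio became 1.13 and trib3 was called. Under that scaling the median over all measured genes was 0.42, and 12.5% of them were called. Its paralog trib1 was at 1.16 ± 0.199, 1.65 ± 0.224 and 1.58 ± 0.270 FPKM, while trib2 stayed under 1 FPKM in each library.

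ddit3 (ENSDARG00000059836, chromosome 6, 58915889 to 58919086) encodes CHOP, a transcription factor of the stress response that in mammals promotes cell death when stress persists. It was at 8.30 ± 1.24 FPKM on control feed, 11.9 ± 1.37 on Cavendish and 12.8 ± 1.78 on Fe'i. Again both banana intervals lay above the control interval and overlapped each other. The log2 ratios to control were 0.48 (counting SE 0.12) and 0.56 (counting SE 0.13). For trib3 and ddit3 both ratios to control stayed above 0 under each of the 10 alternative settings, from 0.33 to 1.13 for trib3 and from 0.23 to 0.93 for ddit3. Only the changes of scaling could turn a sign, as the other settings leave the order of 2 levels as it is or nearly so. Intervals that do not overlap are common in these data: 4 of the 10 genes had them between the Cavendish and control libraries, where 37.5% of all measured genes did, and 3 of 10 between the Fe'i and control libraries, where 30.7% did. The banana libraries share the control library, so their ratios to it are not independent. Summed markers of liver, endocrine pancreas and of smooth muscle and fibroblast were lowest in the control library as well, the last 2 sums with Cavendish highest as for trib3, and the part of cell makeup in the trib3 and ddit3 values was not tested.

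**Figure D2:**
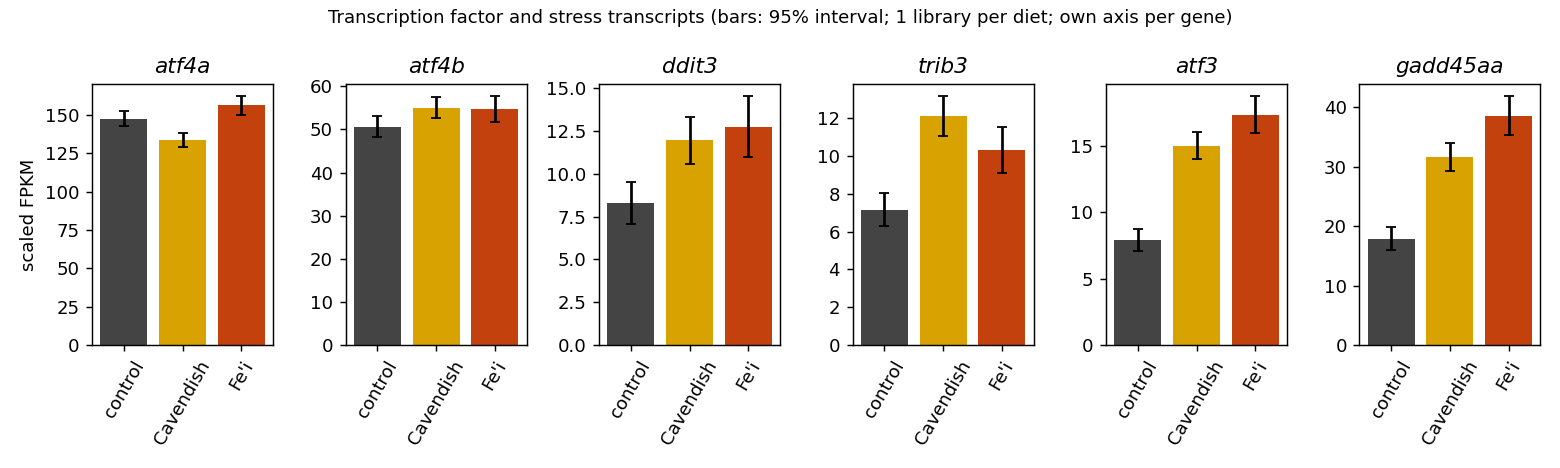
Scaled FPKM for atf4a, atf4b, ddit3, trib3, atf3 and gadd45aa, for the control, Cavendish and Fe'i libraries, each gene on its own axis from 0, with the deposited 95% interval as the error bar. The 4 genes on the right are lowest in the control library, with control intervals below both banana intervals, while atf4b is level and atf4a is lowest in the Cavendish library. Other listed targets and partners of ATF4, not shown, were lower than control.

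The serine genes differed from one another in level and varied most at the first step. phgdh (ENSDARG00000001873, chromosome 9, 48185936 to 48214216) encodes phosphoglycerate dehydrogenase, which commits the glycolytic intermediate to serine. It was at 1.65 ± 0.404 FPKM on control feed, 0.887 ± 0.272 on Cavendish and 2.74 ± 0.598 on Fe'i, and no pair of these intervals overlapped. Without a pseudocount, the Fe'i level was 3.09 times the Cavendish level, with a counting interval of 2.14 to 4.47. On the log2(FPKM + 1) scale the ratio was 0.99 (counting SE 0.16), just under the threshold. With a pseudocount of 0.1 it was 1.53 and phgdh was called, as were 12.7% of all measured genes. The ratios to control on the log2(FPKM + 1) scale were -0.49 (counting SE 0.15) for the Cavendish and 0.50 (counting SE 0.16) for the Fe'i library. All 3 ratios kept their sign under each of the 10 alternatives, of which only the changes of scaling could turn a sign. The gene rests on few reads, with 67.0, 42.4 and 84.0 effective fragments. The Fe'i library was highest and the Cavendish library lowest in the summed markers of lysosome-rich enterocytes as well. The same held for the measured egg and germ cell markers, whose choice by the minimum FPKM favoured the Fe'i library. The part of cell makeup in the phgdh values was not tested.

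psat1 (ENSDARG00000016733, chromosome 5, 69486184 to 69499595) encodes the aminotransferase of the next step. Its levels were 4.96 ± 0.894, 5.67 ± 0.881 and 6.95 ± 1.22 FPKM, and all intervals overlapped. The log2 ratios to control were 0.16 (-0.12 to 0.45) and 0.42 (0.11 to 0.72).

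psph (ENSDARG00000040314, chromosome 15, 413543 to 419597) encodes the phosphatase that releases serine in the last step. It was the most abundant of the serine genes, at 34.6 ± 2.51 FPKM on control feed, 29.4 ± 2.15 on Cavendish and 36.6 ± 3.01 on Fe'i. The Cavendish interval lay below both others, at a log2 ratio to control of -0.23 (counting SE 0.07). With libraries scaled on enterocyte markers this ratio became 0.25, below the median of 0.42 over all measured genes under that scaling. Within a library psph was at 20.9, 33.1 and 13.3 times the level of phgdh, and psat1 at 3.00, 6.39 and 2.54 times that level. The counting intervals of the psph to phgdh ratio were 24.3 to 45.1 on Cavendish and 10.6 to 16.8 on Fe'i, so the transcripts of the pathway's first and last enzymes were not in the same proportion in these libraries.

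shmt2 (ENSDARG00000104414, chromosome 6, 59176470 to 59230818) was at 19.6 ± 1.82, 18.8 ± 1.65 and 23.2 ± 2.28 FPKM. Its Fe'i interval overlapped that of the control and lay above that of the Cavendish library. Its cytosolic counterpart shmt1 was 2.67, 2.37 and 2.80 times as abundant, at 52.4 ± 3.40, 44.5 ± 2.90 and 65.0 ± 4.32 FPKM, with no overlap between any pair of intervals. All 4 serine genes stood higher in the Fe'i than in the Cavendish library, with log2 ratios of 0.25 to 0.99, and their sum was 60.8, 54.7 and 69.5 FPKM. In this comparison 3 of the 4 had intervals that did not overlap, against 35.7% of all measured genes. The 6 genes of the response had 0 such intervals in this comparison, and their ratios ranged from -0.34 to 0.09.

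**Figure D3:**
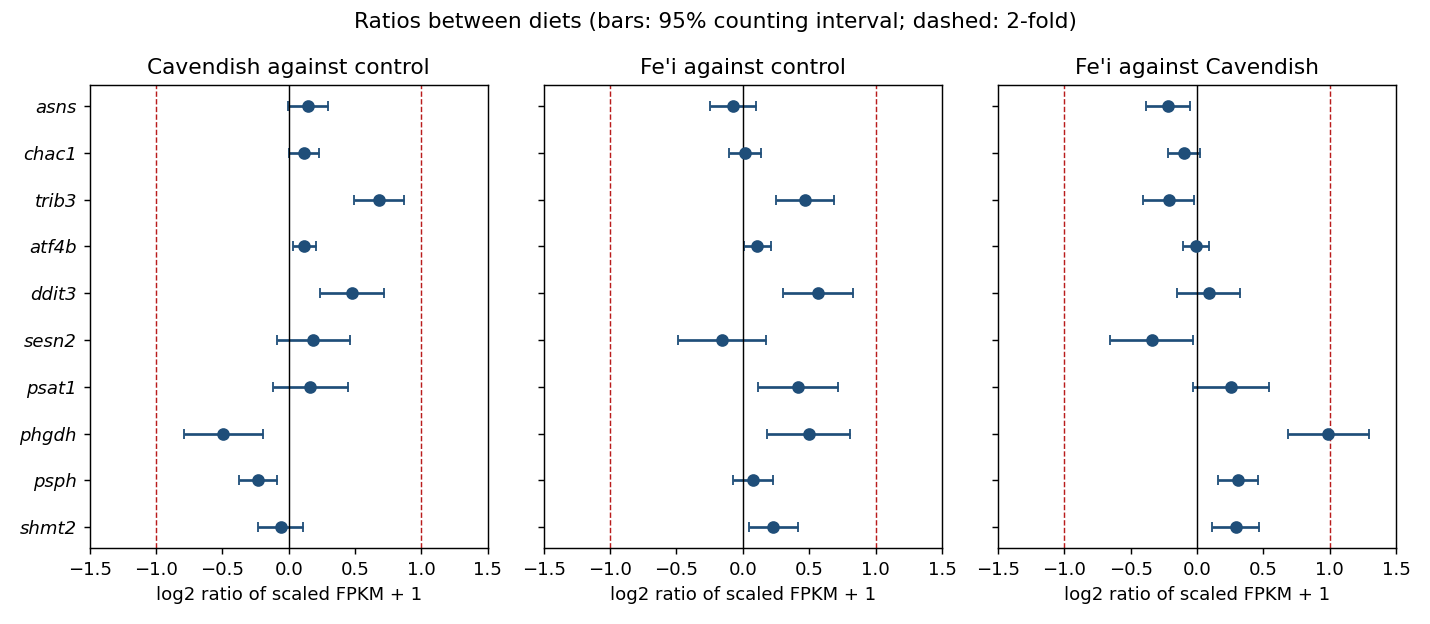
Log2 ratio of scaled FPKM + 1 for each of the 10 genes in the 3 comparisons, with the 95% counting interval as the bar and the 2-fold threshold as dashed lines. Every point lies inside the dashed lines; trib3 and ddit3 lie right of 0 in both comparisons with control, and phgdh in the Fe'i against Cavendish panel lies at 0.99.

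Upstream of ATF4, the intervals of the eIF2 kinase genes eif2ak3 and eif2ak1 lay apart in the control library and overlapped in each banana library. eif2ak3, which encodes the endoplasmic reticulum kinase PERK, was at 6.98 ± 1.55, 4.00 ± 0.853 and 6.43 ± 1.57 FPKM, the Cavendish interval lying below both others. eif2ak1, the kinase that responds to heme shortage, was at 4.60 ± 0.588, 4.82 ± 0.566 and 5.15 ± 0.718, all overlapping. eif2ak2 stayed under 1 FPKM in each library, and eif2ak4, the gene of GCN2, was not analysed here. Of 13 measured genes of eIF2 and its control 0 were called in any comparison, beside 7.31%, 6.72% and 8.71% of all measured genes. The genes with the ratios of greatest size to control were eif2ak3, the exchange factor subunits eif2b3 and eif2b1, at -0.72 and -0.47 in the Cavendish library, and the eIF2 subunit eif2s1b, at 0.46.

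Among 29 other measured targets and partners of ATF4, 2 were called higher than control on Cavendish and 0 lower, at a median ratio of 0.35, where 5.66% of all measured genes were called higher and 1.65% lower. On Fe'i 3 were called higher than control and 1 lower, at a median of 0.09, beside 4.93% and 1.79% of all genes. Between the Fe'i and Cavendish libraries 0 were called higher and 2 lower, beside 4.22% and 4.49% of all genes. eif4ebp3, which encodes a repressor of cap-dependent translation, was at 30.4 ± 3.29 FPKM on control feed, 114 ± 7.15 on Cavendish and 65.8 ± 5.89 on Fe'i, and was called higher in both. Its order of levels was that of the summed endocrine pancreas and the summed smooth muscle and fibroblast markers, whose part was not tested. Its relative eif4ebp3l was called lower than control in the Fe'i library, at 42.9 ± 3.57, 50.4 ± 3.76 and 17.4 ± 2.41 FPKM, a call lost with enterocyte scaling. It was called lower in the Fe'i than in the Cavendish library too. The other gene lower in that comparison was slc3a2b, a heavy chain of amino acid transporters, named after its values were seen. It was at 3.87 ± 0.637, 5.75 ± 0.732 and 2.29 ± 0.579 FPKM, and its call was lost with TPM and with a pseudocount of 5. The stress transcription factor atf3 was at 7.92 ± 0.813, 15.0 ± 1.05 and 17.4 ± 1.4 FPKM, and gadd45aa, which encodes a protein of growth arrest, at 17.9 ± 1.92, 31.6 ± 2.37 and 38.6 ± 3.30.

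atf3 and gadd45aa were lowest in the control library with no overlap of its interval with either banana interval, as were trib3 and ddit3. Other genes of the list went the opposite way. On Cavendish 7 of the 29 had intervals apart from control and lower (16.9% of all measured genes did), and 15 apart and higher (20.6%). On Fe'i 7 were apart and lower (14.5%) and 12 apart and higher (16.3%). The sets of lower genes were not the same, as eif4ebp3l was lower than control on Fe'i but not on Cavendish. Among the lower ones ddit4, which encodes an inhibitor of mTORC1, was at 45.6 ± 3.44 FPKM on control feed, 29.6 ± 2.51 on Cavendish and 23.3 ± 2.59 on Fe'i, with log2 ratios to control of -0.61 and -0.94, not called; it was named after its values were seen. With a 1.5-fold threshold 9 of the 29 were called higher and 4 lower on Cavendish, beside 1710 and 748 of 14061 measured genes (17.5%). Among those 4 was gadd45ab, a relative of gadd45aa, named after its values were seen. The log2 ratios of atf3 and gadd45aa to control were 0.85 and 0.78 in the Cavendish library, not called, and 1.04 and 1.06 in the Fe'i library, called higher. All 3 calls of higher genes in the Fe'i library were lost with the deposited FPKM and with TPM, and those of atf3 and gadd45aa also with a pseudocount of 5. The remaining call in the Cavendish library was fgf21, a hormone of nutrient shortage, at 3.40 ± 1.34 FPKM on control feed, 8.03 ± 1.95 on Cavendish and 6.53 ± 2.17 on Fe'i, named after its values were seen. The fgf21 call was lost with the deposited FPKM, with TPM, with TPM without exocrine pancreas and mitochondrial genes, and with a pseudocount of 5.

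Of 21 measured cytosolic aminoacyl-tRNA synthetases, which charge transfer RNA and several of which ATF4 raises in mammals, 0 were called in any comparison, beside 7.31%, 6.72% and 8.71% of all measured genes. Their median ratio to control was -0.19 on Cavendish and -0.07 on Fe'i. In the Cavendish library 16 of the 21 lay below control. For 11 of the 21 the intervals also did not overlap, a larger share than the 16.9% of all measured genes. With enterocyte scaling the medians became 0.28 and 0.31, below those of all measured genes under that scaling, 0.42 and 0.33. rars, the arginine enzyme, was at 158 ± 7.64, 101 ± 5.25 and 118 ± 6.52 FPKM. yars, the tyrosine enzyme, was at 35.0 ± 3.59, 22.2 ± 2.44 and 23.7 ± 3.25. vars, the valine enzyme, had a Cavendish interval below both others, at 13.6 ± 0.849, 9.37 ± 0.654 and 14.3 ± 1.01, and cars, the cysteine enzyme, stood at 11.3 ± 1.03, 7.93 ± 0.787 and 9.78 ± 1.08.

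Downstream of serine, 30 genes of glycine and one-carbon metabolism were measured. On Cavendish 1 was called higher than control and 2 lower (median -0.03), and on Fe'i 2 higher and 0 lower (median 0.02). Over all measured genes the shares were 5.66% higher and 1.65% lower on Cavendish and 4.93% and 1.79% on Fe'i. The 2 lower calls on Cavendish lay above that share, and the other counts were near theirs. amt, a subunit of the glycine cleavage system, was at 39.1 ± 2.14 FPKM on control feed, 16.6 ± 1.3 on Cavendish and 20.3 ± 1.79 on Fe'i, called lower in the Cavendish library, a call lost with enterocyte scaling. mat1a, which makes the methyl donor S-adenosylmethionine and in mammals is chiefly a liver gene, was at 34.3 ± 1.75, 58.0 ± 2.12 and 129 ± 3.96 FPKM, called higher in the Fe'i library. bhmt, which remethylates homocysteine, was at 178 ± 7.84, 354 ± 13.1 and 582 ± 21.7 FPKM and was called higher in the Fe'i library too. dmgdh, which frees a one-carbon unit from dimethylglycine, was at 2.56 ± 0.531, 6.59 ± 0.817 and 5.93 ± 0.955 FPKM and was called higher in the Cavendish library, a call lost with a pseudocount of 5, TPM or unscaled FPKM. The summed liver markers took the order control, Cavendish, Fe'i, as mat1a and bhmt did, and the part of liver RNA in these values was not tested.

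**Figure D4:**
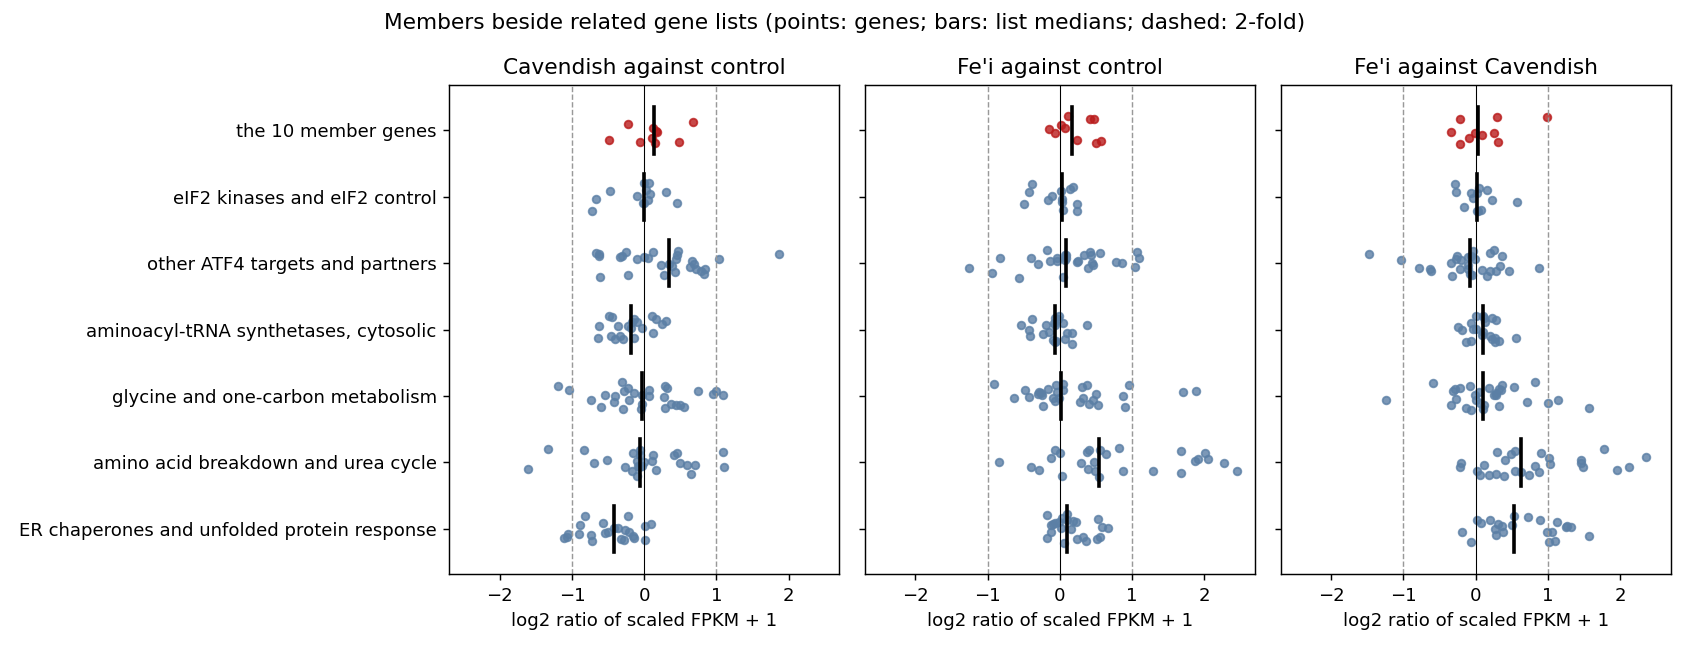
Log2 ratios of scaled FPKM + 1 for the 10 genes (top row) and for measured genes of 6 related lists, 1 point per gene, with list medians as black bars and the 2-fold threshold as dashed lines; points are spread vertically for legibility. The 10 genes lie inside the threshold in all panels, while genes of amino acid breakdown reach past 2 in both Fe'i panels.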

How the data were processed

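Poly(A) RNA was sequenced in paired reads of 150 bases from 3 intestinal libraries, 1 per diet, grouped by the treatment label. Per the submitters' processing notes, FastQC 0.11.5 and TopHat2 2.1.0 were used on the build GRCz11. The authors deposited FPKM made with Cufflinks (per the series design text), each gene with a 95% interval and a status; neither version nor options of Cufflinks were stated.

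Rows were summed by gene identifier, and genes with a row whose status was not OK in any of the 3 libraries were left out. Such rows numbered 9 in 1 library and were not counted in the others. Libraries were divided by 1.06, 0.969 and 0.965 (control, Cavendish, Fe'i), their median ratio to a geometric mean reference built on 11413 genes that reached 1 FPKM in all 3. A gene that reached 1 FPKM in any library counted as measured (14061 genes). With the interval half-width taken as 2 SD, (FPKM/SD) squared gave the effective fragments; PCR copies are not independent molecules, so errors cover counting and read assignment only. Deposited locus starts count from 0 and are printed with 1 added. The call rule was tested on simulated data with counting error. Python 3.11.15, numpy 2.4.6 and pandas 2.3.3 were used. The 10 genes and all lists were chosen with earlier results of these data known. Besides the 10 genes, their paralogs and the eIF2 kinases, the text names by rule up to 4 genes of each list whose ratio to control was greatest in size at 5 FPKM or more, and the most abundant markers. Alternatives changed the scaling, pseudocount, minimum FPKM, fold threshold and row handling. A gene counted in the glycine and one-carbon list is not reported here by name.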

Additional observations from a re-analysis of the deposited data

How the results depend on the processing

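None of the 10 genes was called as reported. Of 180 ratios recomputed under the 6 alternatives of scaling and pseudocount, 40 moved past their 95% counting interval. Enterocyte scaling moved 18 of 30 and TPM 11 of 30, and the rest of these 6 moved 2 to 4 of 30 each. The alternatives of minimum FPKM, fold threshold and row handling leave a ratio as it is or nearly so by construction. With a pseudocount of 0.1 and with TPM the count of called members became 1 between the Fe'i and Cavendish libraries, phgdh. So it did with TPM without exocrine pancreas and mitochondrial genes and with a 1.5-fold threshold. Under these settings in turn, 12.7%, 8.59%, 9.52% and 18.9% of all measured genes were called in this comparison. The count became 1 between the Cavendish and control libraries, trib3, with scaling on enterocyte markers and with a 1.5-fold threshold. There 12.5% and 17.5% of all measured genes were called. Between the Fe'i and control libraries the count stayed 0 throughout. Enterocyte scaling moved the median log2 ratio to control of all measured genes from 0.02 to 0.42 (Cavendish) and from 0.01 to 0.33 (Fe'i), and TPM moved it to -0.19 and -0.10, so the signs of atf4b, chac1, asns, sesn2, psat1, psph and shmt2 against control depended on the scaling in at least 1 comparison.

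The median log2 ratio of the 10 genes to control became 0.59 (Cavendish) and 0.55 (Fe'i) with enterocyte scaling. Over all measured genes, calls numbered 1028, 945 and 1225 in the 3 comparisons. They were 375, 412 and 502 with a pseudocount of 5 and 2458, 2046 and 2661 with a 1.5-fold threshold. Calls for Cavendish against control were 1619 with a pseudocount of 0.1 and 1759 with enterocyte scaling. A minimum of 5 FPKM left 7996 measured genes, with 672 and 801 calls in the comparisons with the Cavendish library. These were 8.4% and 10% of the genes left, against 7.31% and 8.71% as reported. For Cavendish against control 77.4% of calls were higher, against 66.9% with deposited FPKM, 53.4% with TPM and 94.8% with enterocyte scaling; for Fe'i against control enterocyte scaling moved 73.3% to 90.4%. No paired analysis was possible because each diet has 1 library, and no library could be left out. Depth limits phgdh, sesn2 and psat1 most.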

Other observations

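Of 27 measured genes of amino acid breakdown and the urea cycle, 9 passed the call rule upward against control on Fe'i and 0 downward (median log2 ratio 0.55), against 2 upward and 1 downward on Cavendish (median -0.05). Over all measured genes the shares were 4.93% upward and 1.79% downward on Fe'i and 5.66% and 1.65% on Cavendish, so the Cavendish count was near the background. pah, which converts phenylalanine to tyrosine, was at 7.07 ± 0.840 FPKM on control feed, 10.3 ± 0.944 on Cavendish and 43.0 ± 2.41 on Fe'i. hpda, a later enzyme of tyrosine breakdown, was at 71.7 ± 4.30, 155 ± 7.69 and 292 ± 14.1 FPKM, and tdo2a, which opens the ring of tryptophan, at 33.6 ± 2.79, 51.2 ± 3.35 and 142 ± 7.81. Its paralog tdo2b was at 1.3 ± 0.488, 1.18 ± 0.426 and 10.1 ± 1.46. These are chiefly liver enzymes, 23 of 24 liver markers passed the rule upward on Fe'i as well and 1 downward, and the part of liver RNA was not tested.

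Stress of the endoplasmic reticulum reaches ATF4 through eIF2, as amino acid shortage does. Of 23 measured genes of its chaperones and unfolded protein response, 3 were called lower on Cavendish than in control, beside 1.65% of all measured genes, and 8 were called higher in the Fe'i than in the Cavendish library, beside 4.22%; enterocyte scaling left 0 called between the Cavendish and control libraries. The chaperone hspa5 was at 210 ± 4.61, 101 ± 2.91 and 301 ± 6.40 FPKM, and the disulfide isomerase pdia6 at 91.6 ± 5.0, 41.7 ± 2.69 and 85.4 ± 5.10. phgdh, psph, shmt2, shmt1, chac2 and atf4a took the order of hspa5, lowest in the Cavendish and highest in the Fe'i library. Of these only phgdh and shmt1 had no overlap between any pair of intervals. psat1, pdia6 and the members of the response did not take that order. How many of all measured genes took it was not counted, and a link to hspa5 was not tested. Of 25 measured genes of mTORC1 and amino acid sensing 0 were called in any comparison, beside 7.31%, 6.72% and 8.71% of all measured genes. slc38a9, a lysosomal arginine sensor in mammals, was at 2.41 ± 0.547, 2.68 ± 0.532 and 5.71 ± 0.968. Its log2 ratio to control on Fe'i was 0.98, and it was called there with a pseudocount of 0.1 and with enterocyte scaling. These settings called 1 and 3 of the 25 there, beside 9.44% and 9.16% of all measured genes. Between the Fe'i and Cavendish libraries 3 of the 25 were called with a pseudocount of 0.1 and 2 with TPM, beside 12.7% and 8.59%.

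Of 17 measured genes of amino acid synthesis and transamination, 0 were called against control on Cavendish and 2 on Fe'i, both upward, at medians of 0.10 and 0.42, beside 7.31% of all measured genes called on Cavendish and 4.93% called upward on Fe'i. They were cbsb, which joins serine to homocysteine, at 10.2 ± 1.06, 10.2 ± 0.988 and 21.6 ± 1.85 FPKM, and asl, which makes arginine, at 1.63 ± 0.508, 1.83 ± 0.492 and 5.15 ± 1.01 and named after its values were seen. The call of cbsb was lost with the deposited FPKM, with both forms of TPM and with a pseudocount of 5, and that of asl with a pseudocount of 5 and a minimum of 5 FPKM. glulb, a glutamine synthetase, was at 10.2 ± 1.3, 20.7 ± 1.84 and 13.2 ± 1.73, not called. The log2 ratio of glsb to control was larger, at 1.07 on Cavendish, and was not called either.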
